A study of Mus musculus with 12 samples.

Results

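The NR4A nuclear receptors Nr4a1, Nr4a2 and Nr4a3 were described in RNA-seq of mouse lung cancer cells. They were chosen by gene symbol, and all 3 were found among the 30743 rows of genes and transcripts in the count table. The libraries came from tumours of mice with the strain label mixed BL6/129, in 4 groups by sample title. KT;Lkb1f/f tumours (3 libraries) carried floxed alleles of Lkb1, the gene also called Stk11. The titles sgSik1 (3 libraries) and sgSik1-3 (2 libraries) mark KT tumours with the H11LSL-Cas9 allele, which makes Cas9 after Cre recombination, and guide RNAs against Sik genes. The genotype label does not separate these, and the 5 libraries together are called Sik-targeted. KT tumours (4 libraries) had neither change and shared the KT background with all other groups, and the labels do not spell out what KT stands for. No age is given, and which Sik genes the name sgSik1-3 covers is not stated in the titles. Alternative names mention lentiviral Cre for KT replicates 2 to 4 and not for replicate 1. Neither the promoter that drove Cre nor the animal behind each library is stated. The spread behind the p-values is therefore that of libraries and may be partly or wholly technical.

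NR4A proteins are orphan nuclear receptors: they bind DNA at the NBRE motif as monomers, no classical ligand is known for them, and their activity follows mainly from how much of them a cell makes. Nr4a1 (Nur77), Nr4a2 (Nurr1) and Nr4a3 (Nor1) are immediate-early genes, and cAMP signalling switches them on through the transcription factor CREB and its CRTC coactivators. The kinase LKB1 switches on the salt-inducible kinases (SIK1 to SIK3), which phosphorylate CRTC proteins and keep them out of the nucleus, so NR4A genes are widely used as a readout of CRTC activity. NR4A genes also respond within minutes to growth factors, calcium, stress and the handling of tissue. The question behind the design is what Lkb1 deletion and Sik targeting change in the RNA of these cancer cells.

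Nr4a1 (ENSMUSG00000023034) lies on chromosome 15 from 101254269 to 101274795 on the plus strand. Nr4a2 (ENSMUSG00000026826) lies on chromosome 2 from 57106830 to 57124003 on the minus strand. Nr4a3 (ENSMUSG00000028341) lies on chromosome 4 from 48045153 to 48086447 on the plus strand. These are spans of whole genes, exons, introns and untranslated regions together, in GENCODE M21 on GRCm38, the assembly that mm10 names, and no other annotated gene overlapped any of them. The longest stretch of identical bases between transcripts was 14 bases for Nr4a1 and Nr4a2, 24 bases for Nr4a1 and Nr4a3 and 27 bases for Nr4a2 and Nr4a3, each far below the read length.

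The DNA before each start site is printed because NR4A promoters are known targets of CREB, whose binding was not measured in these libraries. The RefSeq table for GRCm38.p6 gives a window of 300 bases per gene, 250 bases before the start site and 50 bases after its first base. In each stretch, read 5′ to 3′ on the gene's own strand, capitals mark the core of a CREB site (a CRE half-site), TGACG or its reverse complement CGTCA.

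Nr4a1, chr15:101266596-101266845, plus strand: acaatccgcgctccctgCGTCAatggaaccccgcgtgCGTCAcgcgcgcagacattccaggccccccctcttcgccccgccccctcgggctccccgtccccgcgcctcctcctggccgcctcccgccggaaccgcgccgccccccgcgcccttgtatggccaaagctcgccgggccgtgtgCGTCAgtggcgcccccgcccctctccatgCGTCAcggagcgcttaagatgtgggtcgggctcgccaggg
Nr4a2, chr2:57124004-57124253, minus strand: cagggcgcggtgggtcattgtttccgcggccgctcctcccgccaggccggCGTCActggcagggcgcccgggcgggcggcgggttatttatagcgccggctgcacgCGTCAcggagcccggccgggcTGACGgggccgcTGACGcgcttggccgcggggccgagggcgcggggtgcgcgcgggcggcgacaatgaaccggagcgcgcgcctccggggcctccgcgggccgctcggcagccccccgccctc
Nr4a3, chr4:48045055-48045152, plus strand: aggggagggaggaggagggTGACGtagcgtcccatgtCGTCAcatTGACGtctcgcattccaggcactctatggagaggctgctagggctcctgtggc

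The Nr4a3 stretch is shorter because it ends where the first annotated exon begins, and it shows 3 of the 4 cores in its window. The Nr4a1 start site at 101266846 is an annotated one but lies inside the gene, which begins at 101254269. Each of the 3 windows held 4 cores, counting both strands. In Nr4a1 they began at -233, -213, -69 and -40 from the start site, in Nr4a2 at -200, -144, -123 and -111, and in Nr4a3 at -231, -213, -205 and -147. Among 32851 mouse promoter windows of this length, 76 (0.231%) held at least 4 cores, and 20.8% held at least 1. These windows are rich in CpG dinucleotides, with 35 for Nr4a1, 52 for Nr4a2 and 26 for Nr4a3, and the core itself contains a CpG. Among the 5543 windows with at least 26 CpG, 51 (0.92%) held at least 4 cores. The full CRE TGACGTCA, which is made of overlapping cores on opposite strands, was in none of the 3 windows and in 1.79% of all windows. The AP-1 site TGANTCA, bound by FOS and JUN proteins, was in none of the 3 and in 7.81% of all windows. The NBRE AAAGGTCA, the NR4A proteins' own motif, was in none of the 3 and in 1.51% of all windows. A match is a description of the letters only, and counts per gene do not show which start site was used.

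Total counts per library ranged from 3847760 to 13955181. KT replicates 2 and 3 stood apart: 23582 and 23747 genes had counts there, and 14283 to 16533 genes did elsewhere, so results are also given without them. The 4 most abundant transcripts (AK140265, Rn45s, Malat1 and GU332589) took 18.4% to 48.1% of the counts in KT and 44.5% to 56.4% in KT;Lkb1f/f libraries. They took 36.5% to 74.2% in sgSik1 libraries, most in replicate 1, and 61.5% and 65.2% in sgSik1-3 libraries. This share therefore differed with the group. The levels below are CPM on sizes scaled by the trimmed mean of M values (TMM), which is meant to correct for this. Whether it does so fully was not tested. Scaled to plain totals instead, the median log2 change of all tested genes was -0.785 in KT;Lkb1f/f and -1.06 in Sik-targeted libraries against KT; with TMM it was -0.0404 and -0.0349. Y-linked transcripts reached 49.2 to 70.6 CPM in KT;Lkb1f/f replicates 2 and 3 and both sgSik1-3 libraries, and at most 1.71 CPM in the others. Stk11 was at 9.23 to 16.6 CPM in KT;Lkb1f/f libraries, below every Sik-targeted library (22.6 to 137 CPM) and every KT library (31.0 to 44.7 CPM). Sik3 was at 9.17 to 21.0 CPM in sgSik1, 8.74 to 11.9 CPM in sgSik1-3 and 26.9 to 46.7 CPM in KT libraries. Sik1 was higher, at 105 to 514 CPM in Sik-targeted and 38.2 to 59.6 CPM in KT libraries. So was Sik2, at 12.7 to 28.1 CPM in Sik-targeted, 17.4 to 31.8 CPM in KT;Lkb1f/f and 4.72 to 10.4 CPM in KT libraries. KT;Lkb1f/f libraries held Sik1 at 149 to 214 CPM, also above every KT library, and Sik3 at 38.5 to 56.7 CPM. Cas9 cuts need not lower a transcript, so Sik RNA levels do not measure how well the guides worked.

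The epithelial marker Epcam was present in every library, at 118 to 338 CPM in KT;Lkb1f/f, 159 to 388 CPM in Sik-targeted and 123 to 192 CPM in KT libraries. The sort stained CD45, CD31, F4/80 and Ter119 to remove blood and endothelial cells. Ptprc, which encodes CD45, was at most 0.103 CPM in KT;Lkb1f/f and 0.724 CPM in Sik-targeted libraries, against 1.06 to 7.89 CPM in KT libraries. Emr1, which encodes F4/80, had no counts in 3 of 3 KT;Lkb1f/f and 4 of 5 Sik-targeted libraries and stood at 0.212 to 2.81 CPM in KT libraries. Pecam1, which encodes CD31, was at 0 to 32.8 CPM in KT;Lkb1f/f, 4.56 to 9.05 CPM in Sik-targeted and 1.57 to 8.70 CPM in KT libraries.

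Nr4a1, the most abundant of the family, was several-fold higher in both engineered genotypes. It stood at 225, 362 and 428 CPM in KT;Lkb1f/f replicates 1 to 3. It stood at 973, 236 and 252 CPM in sgSik1 replicates 1 to 3. The sgSik1-3 libraries held 138 CPM (replicate 1) and 220 CPM (replicate 2). In KT replicates 1 to 4 it stood at 38.7, 40.6, 33.3 and 88.3 CPM. Every KT;Lkb1f/f, sgSik1 and sgSik1-3 library was above every KT library, the closest being sgSik1-3 replicate 1, at 1.57 times KT replicate 4. These levels rest on 586 to 4615 counts per library outside KT and 246 to 545 counts in KT.

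Nr4a2, the receptor needed for midbrain dopamine neurons, showed the widest gap. It stood at 107, 100.1 and 81.7 CPM in KT;Lkb1f/f replicates 1 to 3 and at 56.6, 119 and 49.6 CPM in sgSik1 replicates 1 to 3. The sgSik1-3 libraries held 46.3 CPM (replicate 1) and 51.9 CPM (replicate 2). KT replicates 1 to 4 held 6.92, 4.77, 7.71 and 13.2 CPM. The lowest library outside KT was 3.52 times the highest KT library. Levels outside KT rest on 196 to 973 counts per library and KT levels on 44 to 96 counts.

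Nr4a3 was the least abundant. It stood at 22.1, 43.1 and 52.7 CPM in KT;Lkb1f/f replicates 1 to 3 and at 52.6, 30.9 and 17.2 CPM in sgSik1 replicates 1 to 3. The sgSik1-3 libraries held 4.25 CPM (replicate 1) and 13.2 CPM (replicate 2). KT replicates 1 to 4 held 2.52, 1.71, 3.05 and 8.49 CPM. KT;Lkb1f/f and sgSik1 libraries were all above KT, but sgSik1-3 replicate 1 lay below KT replicate 4. Counts were as low as 18 in sgSik1-3 replicate 1 and 16 to 40 in KT, so counting error alone is larger here than for the other members.

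**Figure D1:**
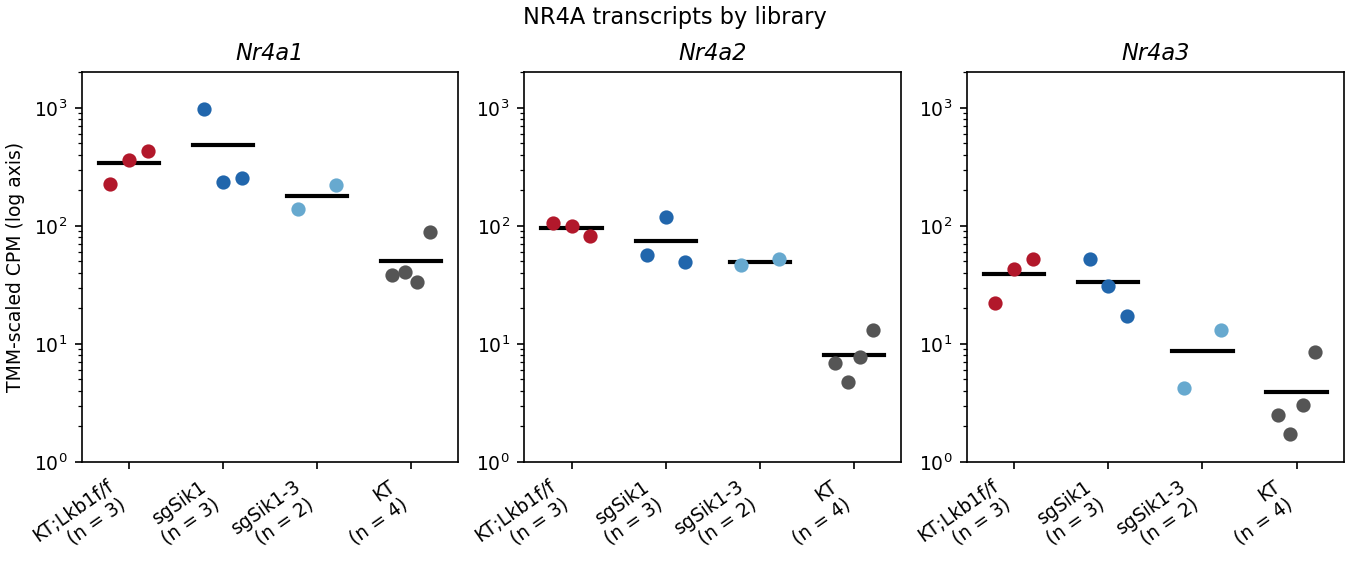
Level of each NR4A gene in every library, as TMM-scaled CPM on a log axis; points are libraries and lines are group means. All KT libraries lie below all KT;Lkb1f/f and sgSik1 libraries for each gene, and KT overlaps sgSik1-3 for Nr4a3 only.

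Lkb1 deletion went with higher RNA of all 3 receptors. Nr4a1 averaged 338 ± 103 CPM in KT;Lkb1f/f (SD, n = 3) and 50.2 ± 25.6 CPM in KT libraries (SD, n = 4). This was 6.75-fold, or 2.76 on the log2 scale (SE 0.59, adjusted p 0.0408). Nr4a2 averaged 96.2 ± 13.0 CPM in KT;Lkb1f/f and 8.14 ± 3.57 CPM in KT libraries, a log2 change of 3.58 (SE 0.42, adjusted p 0.00128), or 11.9-fold. Nr4a3 averaged 39.3 ± 15.6 CPM in KT;Lkb1f/f and 3.94 ± 3.08 CPM in KT libraries, a log2 change of 3.36 (SE 0.70, adjusted p 0.0377), or 10.3-fold. Adjusted p-values here and below come from edgeR's quasi-likelihood test, with the Benjamini-Hochberg method applied to every gene tested and a threshold of 0.05. All 3 members rose, where 83 of 13575 tested genes (0.611%) rose and 0.552% fell, and Nr4a2 had the third smallest p of all genes tested. On plain library totals the split of all called genes was 16 higher and 139 lower, where TMM gave 83 and 75. The log2 changes on plain totals were 2.12 for Nr4a1, 2.90 for Nr4a2 and 2.74 for Nr4a3, and all 3 still passed. With a term for the Y-linked transcripts, which were high in KT;Lkb1f/f replicates 2 and 3 and in no KT library, Nr4a1 (3.34, adjusted p 0.0697) and Nr4a3 (4.19, adjusted p 0.0619) did not pass. Without KT replicate 4 the Nr4a3 change was 4.00. All 3 also had every KT;Lkb1f/f library above every KT library, which 6.38% of tested genes did. The Nr4a2 call held when any library was left out. Nr4a1 no longer passed without KT replicate 1 (adjusted p 0.126), 2 (0.150) or 3 (0.162), KT;Lkb1f/f replicate 2 (0.0778) or 3 (0.0819), sgSik1 replicate 3 (0.0526) or sgSik1-3 replicate 2 (0.0589), and Nr4a3 without KT replicate 1 (0.121), 2 (0.139) or 3 (0.150), KT;Lkb1f/f replicate 2 (0.0677) or 3 (0.0725), or sgSik1-3 replicate 2 (0.0565). Without KT replicates 2 and 3 together, the log2 changes were 2.43 for Nr4a1 (adjusted p 0.462), 3.28 for Nr4a2 (0.0922) and 2.86 for Nr4a3 (0.450).

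Sik targeting went with changes of similar size. Nr4a1 averaged 364 ± 344 CPM in Sik-targeted libraries (SD, n = 5) and was 7.26-fold higher than in the same KT libraries (log2 change 2.86, SE 0.56, adjusted p 0.0068). Nr4a2 averaged 64.7 ± 30.7 CPM, a log2 change of 3.01 (SE 0.39, adjusted p 0.000805), or 8.04-fold. Nr4a3 averaged 23.6 ± 18.8 CPM, a log2 change of 2.62 (SE 0.65, adjusted p 0.019), or 6.16-fold. All 3 members rose, where 5.81% of tested genes rose and 6.56% fell, so a call here is less rare than under Lkb1 deletion. On plain library totals 216 genes were higher and 4349 lower, where TMM gave 789 and 890. The log2 changes on plain totals were 1.64 for Nr4a1, 2.03 for Nr4a2 and 1.51 for Nr4a3, and all 3 still passed. Nr4a1 and Nr4a2 had no overlap with KT, as had 7.32% of tested genes, and Nr4a3 overlapped through sgSik1-3 replicate 1. Both comparisons use the same KT libraries, so they are not independent of each other. KT libraries lack the Cas9 allele as well as the guides, so effects of the allele and of Sik targeting cannot be told apart. Nr4a1 and Nr4a2 passed without any library in turn, though Nr4a1 changed by 2.07 without sgSik1 replicate 1. Nr4a3 changed by 3.23 without KT replicate 4 and lost its call when KT replicate 1 (adjusted p 0.0575), 2 (0.0737) or 3 (0.0689) was left out. Without KT replicates 2 and 3 together, only Nr4a2 passed (log2 change 2.67, adjusted p 0.0387), with 2.47 for Nr4a1 (0.141) and 2.06 for Nr4a3 (0.261).

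KT;Lkb1f/f and Sik-targeted libraries overlapped for every NR4A gene and no difference between them passed. The log2 difference of KT;Lkb1f/f from Sik-targeted libraries was -0.10 for Nr4a1 (95% interval -1.28 to 1.07, adjusted p 0.956). It was 0.57 for Nr4a2 (-0.22 to 1.37, adjusted p 0.551) and 0.74 for Nr4a3 (-0.58 to 2.06, adjusted p 0.663). In this comparison 30 of 13575 genes (0.221%) passed in either direction. The intervals leave room for differences of more than 2-fold either way for Nr4a1, and of more than 2-fold upward for Nr4a2 and Nr4a3, so equal levels are not shown.

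Split by title, the sgSik1 libraries carried the larger changes. Nr4a1 averaged 487 ± 421 CPM in sgSik1 libraries (SD, n = 3) and changed by 3.30 against KT on the log2 scale (SE 0.53, adjusted p 0.00463). Nr4a2 averaged 75.1 ± 38.4 CPM, a log2 change of 3.25 (SE 0.42, adjusted p 0.00119), and Nr4a3 averaged 33.6 ± 17.8 CPM, a log2 change of 3.15 (SE 0.59, adjusted p 0.0105). All 3 rose in sgSik1 libraries, where 2.71% of 15303 tested genes did, and none overlapped KT, as for 8.24% of genes. On plain totals the split of called genes was 70 higher and 927 lower in sgSik1 libraries, where TMM gave 415 and 173, and 61 and 1004 in sgSik1-3 libraries, where TMM gave 267 and 176. The log2 changes in sgSik1 libraries on plain totals were 2.02 for Nr4a1, 2.28 for Nr4a2 and 2.00 for Nr4a3, and those in sgSik1-3 libraries were 0.80, 1.54 and 0.16. In sgSik1 libraries the Nr4a3 change was 2.65 without sgSik1 replicate 1 (adjusted p 0.0642) and 3.74 without KT replicate 4. The Nr4a1 change was 2.28 without sgSik1 replicate 1 and still passed, and without KT replicates 2 and 3 together none of the 3 passed (adjusted p 0.170 for Nr4a1, 0.0747 for Nr4a2 and 0.227 for Nr4a3). Both sgSik1-3 libraries held Y-linked transcripts at 49.2 and 70.4 CPM, against at most 1.71 CPM in every sgSik1 and KT library, so the sgSik1-3 label and this difference cannot be told apart in the comparisons with KT and with sgSik1. In sgSik1-3 libraries Nr4a2 averaged 49.1 ± 3.99 CPM (SD, n = 2) and rose by 2.62 on the log2 scale (SE 0.44, adjusted p 0.00703), and it was the only member to pass, where 1.74% of genes rose. Nr4a1 averaged 179 ± 57.9 CPM in sgSik1-3 libraries, a log2 change of 1.86 (SE 0.56, adjusted p 0.0789). Nr4a3 averaged 8.73 ± 6.34 CPM, a log2 change of 1.22 (SE 0.64, adjusted p 0.284). Nr4a1 and Nr4a2 had no overlap between sgSik1-3 and KT, as had 14.9% of tested genes, a common event with 2 libraries against 4. The Nr4a1 call in sgSik1-3 rested on the setting: it passed without KT;Lkb1f/f replicate 1 (adjusted p 0.0472), without sgSik1 replicate 1 (0.0192), with DESeq2 (0.0329), with only the sgSik1-3 and KT groups fitted (0.00826) and with no filter on low counts (0.0052). Nr4a2 in sgSik1-3 libraries did not pass without sgSik1-3 replicate 2 (0.0537), without KT replicates 2 and 3 together (0.126) or on plain library totals (0.077). The Nr4a3 log2 change in sgSik1-3 libraries was 0.18 without sgSik1-3 replicate 2, 1.81 without sgSik1-3 replicate 1 and 1.88 without KT replicate 4, and did not pass in any of these.

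Set directly against sgSik1, sgSik1-3 libraries had lower values of all 3 receptors, but no gene of 15303 passed (0%) with edgeR, which had 528 genes at an unadjusted p under 0.05, and DESeq2 called 1 gene higher and 5 lower. The log2 differences of sgSik1-3 from sgSik1 were -1.44 for Nr4a1 (95% interval -2.79 to -0.09), -0.62 for Nr4a2 (-1.64 to 0.40) and -1.93 for Nr4a3 (-3.45 to -0.40), each with an adjusted p of 1. Both sgSik1-3 libraries were below every sgSik1 library for Nr4a1 and Nr4a3, as for 8.55% of tested genes. Without sgSik1 replicate 1 the Nr4a1 difference was -0.42, and without sgSik1-3 replicate 2 the Nr4a3 difference was -2.97.

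**Figure D2:**
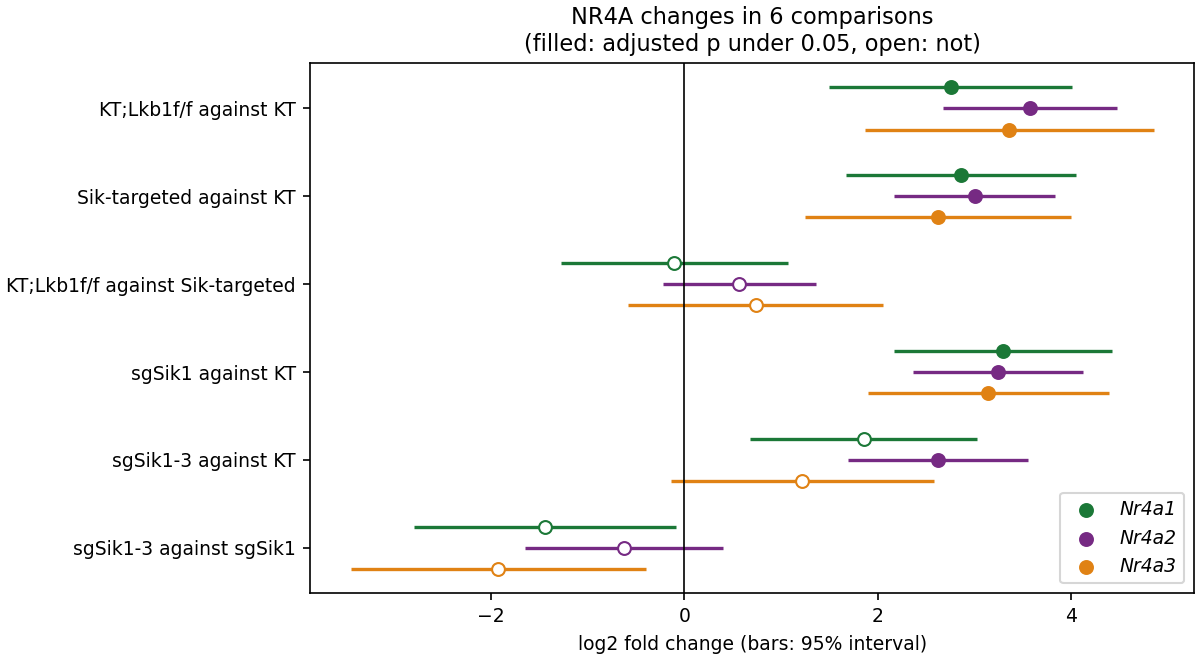
Log2 fold change of each NR4A gene in 6 comparisons, with bars for the 95% interval and filled points for an adjusted p under 0.05. Against KT, the changes in KT;Lkb1f/f, Sik-targeted and sgSik1 libraries are all filled and lie between 2.62 and 3.58; in sgSik1-3 only Nr4a2 is filled.

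By mean level, the order of groups for Nr4a1 was sgSik1, KT;Lkb1f/f, sgSik1-3 and KT. For Nr4a2 and Nr4a3 it was KT;Lkb1f/f, sgSik1, sgSik1-3 and KT. The first pair in each order overlapped, so their order is within the spread of the libraries. The lowest KT;Lkb1f/f library was 1.02 times the highest sgSik1-3 library for Nr4a1, 1.57 times for Nr4a2 and 1.67 times for Nr4a3. A difference between these 2 groups was not tested. The sgSik1-3 and KT libraries were separate for Nr4a1 and Nr4a2 and overlapped for Nr4a3.

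Per length, the family kept the same rank order in every library. Dividing CPM by the joined length of annotated exons (3.51 kb for Nr4a1, 4.06 kb for Nr4a2 and 5.99 kb for Nr4a3), Nr4a1 was above Nr4a2 and Nr4a2 above Nr4a3 in 12 of 12 libraries. Mean levels were 96.5, 23.7 and 6.57 CPM per kb for Nr4a1, Nr4a2 and Nr4a3 in KT;Lkb1f/f libraries. They were 103.7, 15.95 and 3.95 CPM per kb in Sik-targeted libraries and 14.3, 2.01 and 0.659 CPM per kb in KT libraries. The exon length counts all annotated transcripts together, and amplified cDNA need not cover it evenly.

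As shares of the summed NR4A counts, the mix of receptors spanned a wider range over the engineered tumours than over the fewer KT tumours. Nr4a1 made up 63.6%, 71.6% and 76.1% of NR4A counts in KT;Lkb1f/f replicates 1 to 3. It made up 89.9%, 61.1% and 79.1% in sgSik1 replicates 1 to 3. For sgSik1-3 the share was 73.2% in replicate 1 and 77.2% in replicate 2. In KT replicates 1 to 4 it made up 80.4%, 86.2%, 75.6% and 80.3%. The Nr4a2 share ran from 5.22% in sgSik1 replicate 1 to 30.9% in sgSik1 replicate 2, so libraries with the same title spanned the whole range, whereas KT libraries held 10.1% to 17.5%. The Nr4a3 share was 2.25% to 9.37% outside KT and 3.64% to 7.72% in KT.

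**Figure D3:**
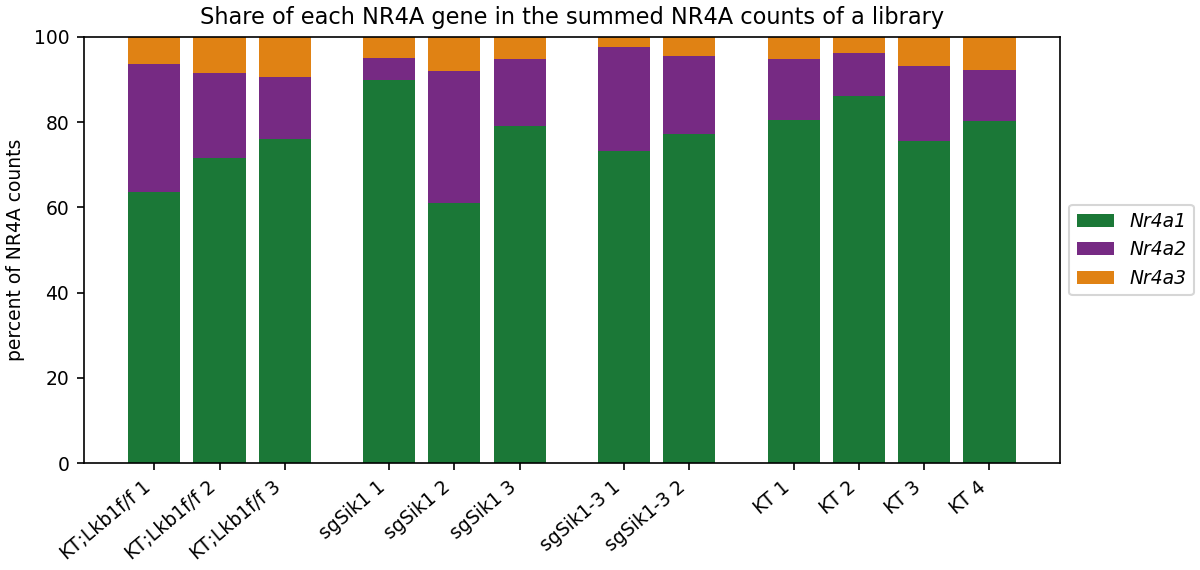
Share of Nr4a1, Nr4a2 and Nr4a3 in the summed NR4A counts of each library, in percent. Nr4a1 holds the most in every library, from 61.1% in sgSik1 replicate 2 to 89.9% in sgSik1 replicate 1.

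Ratios within a library, which need no scaling between libraries, were tested for a shift in balance. The log2 ratio of Nr4a2 to Nr4a1 averaged -1.77 ± 0.66 in KT;Lkb1f/f and -2.60 ± 0.41 in KT libraries, a difference of 0.83 (exact permutation p 0.114, adjusted over 3 ratios 0.171). The log2 ratio of Nr4a3 to Nr4a1 averaged -3.14 ± 0.18 in KT;Lkb1f/f and -3.81 ± 0.54 in KT libraries, a difference of 0.66 (exact permutation p 0.0571, adjusted 0.171). With 3 libraries against 4, a 2-sided exact permutation test cannot go below 0.0571, so every KT;Lkb1f/f library was above every KT library and the ratio still could not pass. The log2 ratio of Nr4a3 to Nr4a2 differed by -0.16 (exact permutation p 0.8) and changed sign without KT;Lkb1f/f replicate 1 or KT replicate 4. In Sik-targeted against KT libraries the differences were 0.38 for Nr4a2 to Nr4a1, -0.20 for Nr4a3 to Nr4a1 and -0.58 for Nr4a3 to Nr4a2, each with an adjusted exact permutation p of 0.667, where 0.0159 is the smallest the design allows.

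Over all 12 libraries, the 3 receptors followed each other. Pearson's r of log2(CPM + 1) was 0.858 between Nr4a2 and Nr4a1, 0.933 between Nr4a3 and Nr4a1 and 0.864 between Nr4a3 and Nr4a2. These values describe libraries that share groups, scaling and tissue handling, and a gene that separates KT from the rest can score high on that alone. Among 10073 other genes, the most alike to Nr4a1 were Trib1 (r 0.978), a pseudokinase, Ccrn4l (0.977), the circadian enzyme nocturnin, Csrnp1 (0.958), Cdkn1a (0.957), the cell cycle inhibitor p21, and Lrrc8c (0.952). The most alike to Nr4a2 were Hbegf (0.924) and Ereg (0.917), which encode EGF receptor ligands, with Pgm5 (0.923), Skil (0.921), a SMAD corepressor, and the small heat shock gene Hspb8 (0.916). The most alike to Nr4a3 were Cyr61 (0.946), a matricellular protein, Trib1 (0.937), Fam174b (0.934), Klf9 (0.91) and Rnf169 (0.905). The libraries that gave these r values also set the changes of these genes against KT, so those changes are not given as results.

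Other targets of CREB and CRTC moved the same way as the receptors where they passed. Of 26 tested genes in a list of such targets without the NR4A genes, 4 rose and 0 fell in KT;Lkb1f/f against KT libraries, with a median log2 change of 1.46 beside -0.0404 for all tested genes. They were the EGF receptor ligand Areg (2.01, adjusted p 0.0197), the AP-1 subunit Fosb (2.81, adjusted p 0.0232), the MAP kinase phosphatase Dusp1 (2.12, adjusted p 0.0422) and the cAMP phosphodiesterase Pde4b (1.84, adjusted p 0.0424). In Sik-targeted libraries 12 of the 26 rose and 0 fell, with a median of 1.40 beside -0.0349 for all genes, led by Pde4b (2.65, adjusted p 0.00176), Areg (2.20, adjusted p 0.00207), Sik1 (2.24, adjusted p 0.0078) and Dusp1 (1.96, adjusted p 0.0116). Of all tested genes, 0.611% rose in KT;Lkb1f/f and 5.81% in Sik-targeted libraries. The list shares 6 genes with the immediate-early list below, among them 2 of the 4 and 5 of the 12 that rose. The count of 4 was 0 without KT replicate 1 or 3, 1 without KT replicate 2 or KT;Lkb1f/f replicate 3, 2 without KT replicate 4, sgSik1 replicate 3 or sgSik1-3 replicate 2, and 8 without sgSik1 replicate 1; the count of 12 was 6 without KT replicate 3. Without KT replicates 2 and 3 together the counts were 0 in KT;Lkb1f/f and 2 in Sik-targeted libraries, and on plain library totals they were 1 and 5.

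With TMM scaling, genes that act before NR4A transcription showed no single direction. Of 33 tested genes for cAMP synthesis, protein kinase A, CREB, CRTC, MEF2, class IIa histone deacetylases and the LKB1 and SIK kinases, none passed in KT;Lkb1f/f libraries, where 5 had an unadjusted p under 0.05 and the median log2 change was 0.295. Of all 13575 tested genes, 1782 (13.1%) had an unadjusted p under 0.05 there. Their median was -0.0404, and 0.611% rose and 0.552% fell. In Sik-targeted libraries 3 rose and 4 fell, where 5.81% and 6.56% of all tested genes did, and the median was 0.457 beside -0.0349 for all genes. Sik1 was among the risers (2.24, adjusted p 0.0078), and the fallers included the adenylyl cyclases Adcy7 (-3.21, adjusted p 0.0102) and Adcy2 (-4.98, adjusted p 0.0121) and the histone deacetylase Hdac9 (-3.32, adjusted p 0.0165). The count of 3 was 1 without any single KT library, sgSik1 replicate 1 or 3, or sgSik1-3 replicate 2. Of 25 tested partners and coregulators of NR4A proteins, none passed in KT;Lkb1f/f libraries (4 at an unadjusted p under 0.05, as were 13.1% of all genes). In Sik-targeted libraries, where 5.81% of all tested genes rose, the corepressor Nrip1 rose by 1.50 (adjusted p 0.0136) and the kinase Rps6ka1 by 1.80 (adjusted p 0.022). The count of 2 was 0 without KT replicate 2, 1 without KT replicate 1 or 3, 4 without sgSik1 replicate 2 and 5 without KT;Lkb1f/f replicate 1. Without KT replicates 2 and 3 together, the counts of 3 risers and 4 fallers above were 0, as was the count of 2. On plain library totals, where 216 of all tested genes rose and 4349 fell, these counts were 0, 11 and 0.

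Genes reported elsewhere as NR4A targets showed no single direction with TMM scaling either. Of 23 tested, none passed in KT;Lkb1f/f libraries (6 at an unadjusted p under 0.05), with a median log2 change of 0.16. For all tested genes the median was -0.0404 there. Of them 13.1% had an unadjusted p under 0.05, 0.611% rose and 0.552% fell. In Sik-targeted libraries 4 rose and 4 fell, where 5.81% and 6.56% of all tested genes did, with a median of 0.0846 beside -0.0349 for all genes. The retinaldehyde dehydrogenase Aldh1a1 fell by 2.19 (adjusted p 0.0108), the transcription factor Runx1 rose by 1.52 (adjusted p 0.0243), cyclin D1 (Ccnd1) by 1.46 (adjusted p 0.0248) and the T cell exhaustion factor Tox by 2.80 (adjusted p 0.0279). The count of 4 risers was 0 without KT replicate 1, 2 or 3, 1 without KT replicate 4 and 2 without sgSik1 replicate 1 or sgSik1-3 replicate 2. The count of 4 fallers was 2 without KT replicate 1 and 1 without KT replicate 2, 3 or 4, sgSik1 replicate 3 or sgSik1-3 replicate 1. Without KT replicates 2 and 3 together, both counts were 0. On plain library totals 0 rose and 8 fell, where 216 and 4349 of all tested genes did. The list was drawn from work in other tissues, mostly steroid-making cells, neurons, muscle, liver and T cells, and 35 of its genes were in the table.

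Few of the other nuclear receptors passed, and the calls were in Sik-targeted libraries, where more of all tested genes passed too. Of 30 tested, none passed in KT;Lkb1f/f against KT libraries (8 at an unadjusted p under 0.05), and the median log2 change was 0.0344. Of all tested genes 0.611% rose and 0.552% fell there, and 13.1% had an unadjusted p under 0.05. In Sik-targeted libraries 3 rose and 1 fell, where 5.81% and 6.56% of all tested genes did, and the median was 0.0409. There 10 of the 30 had an unadjusted p under 0.05, as had 28.5% of all tested genes. Ppard rose by 2.77 (adjusted p 0.005), Hnf4a, a gut and liver regulator, by 4.09 (adjusted p 0.0283) and Pparg by 2.17 (adjusted p 0.0316), while Esrrg fell by 6.95 (adjusted p 0.0103). A difference between these receptors and the NR4A genes was not tested. The count of 3 was 1 without KT replicate 1, 2 or 3 or sgSik1-3 replicate 2 and 5 without KT;Lkb1f/f replicate 1 or sgSik1 replicate 2. Omitting KT replicate 1, 2 or 3 ended the Esrrg call, and 3 genes fell without sgSik1 replicate 2. Without KT replicates 2 and 3 together, the counts of risers and fallers in Sik-targeted libraries were both 0. On plain library totals they were 2 and 7.

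Immediate-early genes as a class were higher beside the NR4A genes. Tumour digestion at 37C induces this class, and NR4A genes belong to it, so the list, kept free of NR4A genes, was read library by library. All 34 of its genes in the table were tested: in KT;Lkb1f/f libraries 14 rose and 0 fell (median log2 change 1.90), and in Sik-targeted libraries 16 rose and 0 fell (median 1.56). Of all tested genes, 0.611% rose in KT;Lkb1f/f and 5.81% in Sik-targeted libraries, with medians of -0.0404 and -0.0349. Fosl1, an AP-1 subunit, rose by 5.67 in KT;Lkb1f/f (adjusted p 0.0179) and by 6.72 in Sik-targeted libraries (adjusted p 0.00162). Egr2, a zinc finger factor, rose by 2.86 in KT;Lkb1f/f (adjusted p 0.0179) and by 2.89 in Sik-targeted libraries (adjusted p 0.00274). The heat shock cochaperone Dnajb1 rose by 3.05 in KT;Lkb1f/f libraries (adjusted p 0.0179), and Ier3 rose by 2.54 in Sik-targeted libraries (adjusted p 0.00459). The summed level of the 34 genes was 18000 to 27000 CPM in KT;Lkb1f/f, 11900 to 31600 CPM in Sik-targeted and 3500 to 7200 CPM in KT libraries, and none of the 34 was at 0 in any library. The part of this class in the NR4A differences was not tested. The count of 14 was 0 without KT replicate 2 or 3, 1 without KT replicate 1, 4 to 7 without KT replicate 4, sgSik1 replicate 3, sgSik1-3 replicate 2 or any KT;Lkb1f/f library, and 20 without sgSik1 replicate 1; the count of 16 was 10 without KT replicate 2 or 3. Without KT replicates 2 and 3 together, both counts were 0, and on plain library totals they were 3 and 7.

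Within groups, the receptors and this class did not always rank libraries alike. The mean log2(CPM + 1) of the 34 genes was 8.16, 7.74 and 7.38 in KT;Lkb1f/f replicates 1 to 3. Nr4a2 had the same order there (107, 100.1 and 81.7 CPM), while Nr4a1 and Nr4a3 were lowest in replicate 1 and highest in replicate 3. In sgSik1 replicates 1 to 3 it was 7.94, 7.01 and 7.07, highest where Nr4a1 and Nr4a3 were highest, but Nr4a2 was highest in replicate 2. The mean was 6.67 and 7.08 in sgSik1-3 replicates 1 and 2, and replicate 1 was the lower one for every receptor. In KT replicates 1 to 4 it was 5.67, 6.04, 5.81 and 6.14, and KT replicate 4 was highest for the class and for all 3 receptors. All KT libraries lay below all others on this measure.

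**Figure D4:**
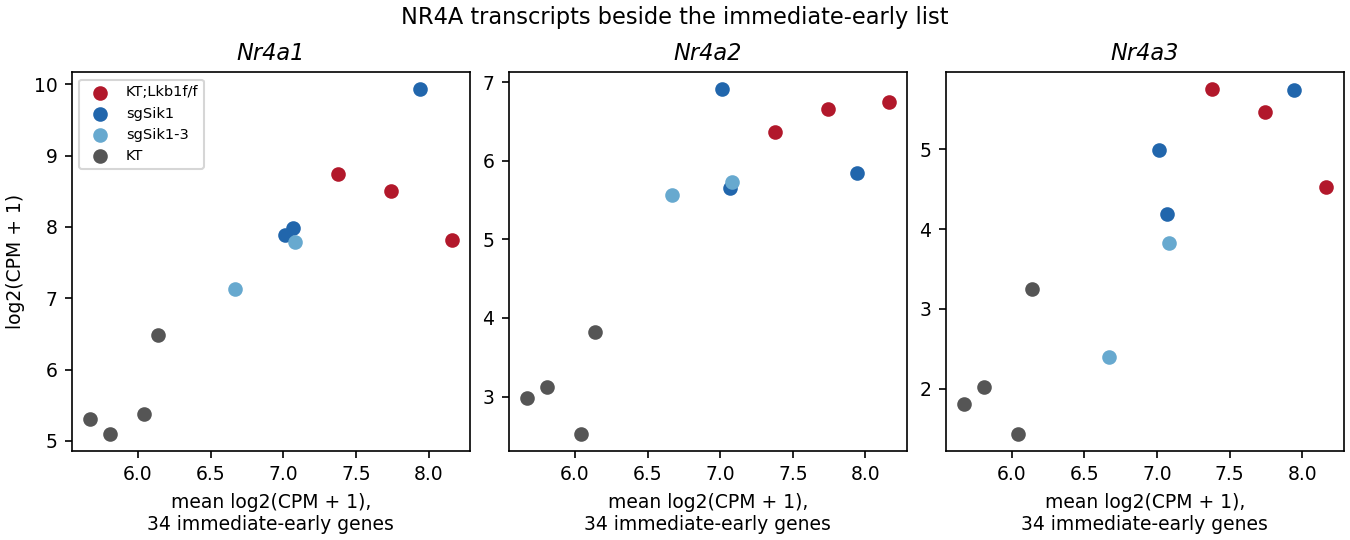
Each NR4A gene, as log2(CPM + 1), against the mean log2(CPM + 1) of 34 immediate-early and dissociation genes without NR4A members; points are libraries coloured by group. Class means are 6.67 to 8.16 outside KT and 5.67 to 6.14 in KT libraries, which sit at the lower left.

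Markers of other cells also differed between the groups. Of all tested genes 0.611% rose and 0.552% fell in KT;Lkb1f/f, and 5.81% rose and 6.56% fell in Sik-targeted libraries. Of 9 tested macrophage and monocyte markers, 5 fell in KT;Lkb1f/f and 6 in Sik-targeted libraries against KT, among them Ctss (-6.40, adjusted p 0.00114, in KT;Lkb1f/f; -5.50, adjusted p 0.000139, in Sik-targeted) and Marco (-5.97, adjusted p 0.0143, and -7.35, adjusted p 0.000377). Their summed level over 11 genes was 21.9 to 30.3 CPM in KT;Lkb1f/f, 26.8 to 56.8 CPM in Sik-targeted and 122 to 1170 CPM in KT libraries, the opposite direction to the NR4A genes. The count of 5 was 3 without KT replicate 2 and 1 without KT replicates 2 and 3 together. The count of 6 was 4 without both. In bulk RNA, fewer cells of a type and less RNA per cell cannot be told apart. Of 5 tested leukocyte markers, Ptprc fell in KT;Lkb1f/f libraries and 3 fell in Sik-targeted libraries. Of 9 endothelial markers, none passed, and their sum was 1.46 to 232 CPM in KT;Lkb1f/f, 18.4 to 46.0 CPM in Sik-targeted and 16.2 to 47.7 CPM in KT libraries. Of 8 tested fibroblast and pericyte markers, none passed in KT;Lkb1f/f and Col3a1 and Pdgfra fell in Sik-targeted libraries, with sums over 9 genes of 2.67 to 438, 16.7 to 43.1 and 30.4 to 406 CPM in KT;Lkb1f/f, Sik-targeted and KT libraries. Of 12 epithelial markers 0 passed in KT;Lkb1f/f and 5 rose in Sik-targeted libraries, and of 12 alveolar type 2 markers 0 passed in KT;Lkb1f/f and 5 fell in Sik-targeted libraries. Several of these counts rest on single libraries. Without KT replicates 2 and 3 together, Ptprc no longer passed in KT;Lkb1f/f libraries. The Sik-targeted counts were then 1 for leukocyte, 0 for epithelial, 2 for type 2 and 0 for fibroblast markers. On plain library totals, where 216 of all tested genes rose and 4349 fell, these counts were 4, 1, 11 and 5. Ptprc in KT;Lkb1f/f no longer passed without KT replicate 1, 2 or 3, KT;Lkb1f/f replicate 1 or 3, sgSik1 replicate 3 or either sgSik1-3 library. In Sik-targeted libraries the leukocyte count of 3 was 1 without KT replicate 1, 2 or 3, the epithelial count was 2 without KT replicate 2, and the type 2 count was 3 without KT replicate 1 or sgSik1 replicate 1. The fibroblast count of 2 was 0 without KT replicate 4 or sgSik1 replicate 1, 1 without KT replicate 2 or 3, sgSik1 replicate 3 or either sgSik1-3 library, 4 without KT;Lkb1f/f replicate 2 and 5 without KT;Lkb1f/f replicate 1. The lists for T and NK cells, B cells, mast cells and erythroid cells had at most 2 genes tested, of which Mcpt8 rose in Sik-targeted libraries (6.52, adjusted p 0.0198). That call was lost without KT replicate 1, 2 or 3, and without KT replicates 2 and 3 together. The summed level of 8 mast cell and basophil markers was 5.88 to 217 CPM in KT;Lkb1f/f, 39.4 to 114 CPM in Sik-targeted and 1.42 to 6.18 CPM in KT libraries, with every Sik-targeted library above every KT library, as for Nr4a1 and Nr4a2. The part of these markers in the NR4A differences was not tested.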

How the data were processed

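The deposited table holds raw counts per gene symbol made by the authors. The submitters' processing notes name STAR 2.4.2a, HTSeq and the mm10 genome; strand setting and annotation: not given in the sources used here. Per the labels' protocols, sorted cells gave RNA that was amplified to cDNA before library preparation. Such amplification can widen the spread, and copies cannot be separated from molecules, as no molecular tags were used in the counts.

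The main test was edgeR 4.0.16 under R 4.3.3 (TMM scaling, filterByExpr, robust quasi-likelihood fit, 2-sided F test, Benjamini-Hochberg adjustment over all tested genes, threshold 0.05). KT;Lkb1f/f, Sik-targeted and KT came from 1 fit of 12 libraries (13575 genes, common dispersion 0.262), and sgSik1 and sgSik1-3 from a fit of 4 title groups (15303 genes, 0.287). The 3 receptors passed the low-count filter in both fits. Intervals are 95% from the standard error and a t quantile. Ratios used counts plus 0.5 and exact permutation tests (SciPy 1.17.1). Likeness used genes with a mean of at least 2 CPM. Scripts were tested on simulated data. Total counts ranged from 3847760 to 13955181 per library, and no libraries of a group were duplicates (lowest chi-square per degree of freedom 17.4).

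The receptors and 16 gene lists were chosen with earlier results of these data known. Of each list, up to 4 genes that passed with the smallest p were named per genotype comparison with KT. Alternatives were DESeq2 1.42.0, limma-voom 3.58.1, other scalings and filters, fewer groups, a replicate block, and each library left out; plain library totals, a term for Y-linked transcripts and list counts under all settings were added after seeing the data.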

Additional observations from a re-analysis of the deposited data

Results flagged for a closer look

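The 3 receptors were each examined in the Sik-targeted (5 libraries) and KT (4 libraries) groups, 6 sets in all, and in 3 sets 1 library lay far from the others on the linear CPM scale. The cutoff marks about 1 set in 20 by chance only if values follow a normal distribution, which was not tested. The sets also share libraries, and the Sik-targeted sets pool 2 title groups. Nr4a1 in sgSik1 replicate 1 was 973 CPM, while the other 4 Sik-targeted libraries held 138 to 252 CPM. The 4 most abundant transcripts took 74.2% of that library's counts and its TMM factor was 0.394, and scaled to its plain total Nr4a1 was at 383 CPM, beside 103 to 331 CPM in the other Sik-targeted libraries. Nr4a1 in KT replicate 4 was 88.3 CPM, while the other KT libraries held 33.3 to 40.6 CPM. Nr4a2 in sgSik1 replicate 2 was 119 CPM, while the other Sik-targeted libraries held 46.3 to 56.6 CPM, and the immediate-early mean of that library was not the highest of its group.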

How the results depend on the processing

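All 12 log2 changes against KT stayed above 0 under every alternative run. Leaving out 1 library at a time, the changes ranged from 2.56 to 3.17 (Nr4a1), 3.37 to 3.89 (Nr4a2) and 3.08 to 4.00 (Nr4a3) in KT;Lkb1f/f, from 2.07 to 3.24, 2.66 to 3.30 and 2.11 to 3.23 in Sik-targeted, from 2.28 to 3.65, 2.74 to 3.51 and 2.65 to 3.74 in sgSik1, and from 1.49 to 2.28, 2.42 to 2.95 and 0.18 to 1.88 in sgSik1-3 libraries. With KT replicates 2 and 3 both left out, changes that no longer passed were 2.43 (Nr4a1), 3.28 (Nr4a2) and 2.86 (Nr4a3) in KT;Lkb1f/f, 2.47 (Nr4a1) and 2.06 (Nr4a3) in Sik-targeted, 2.88, 2.87 and 2.56 in sgSik1, and 2.30 (Nr4a2) in sgSik1-3 libraries; fewer samples enter this fit. The replicate numbers do not pair the libraries: over 15 same-numbered pairs, deviations from group means correlated at -0.413 to 0.224, with 6 pairs over 0.1. With the replicate block the KT;Lkb1f/f changes of Nr4a1 (3.21, adjusted p 0.0622) and Nr4a3 (4.02, adjusted p 0.0562) did not pass, and the block changed no other call of a receptor. With a term for Y-linked transcripts these were 3.34 (adjusted p 0.0697) and 4.19 (adjusted p 0.0619). On plain library totals Nr4a2 in sgSik1-3 was 1.54 (adjusted p 0.077), and the other calls against KT held. Nr4a1 in sgSik1-3 libraries passed with DESeq2 (1.84), no filter (1.86) and only its 2 groups fitted (1.86). For these the cause was not tested.

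The difference in Nr4a1 between KT;Lkb1f/f and Sik-targeted libraries, which never passed, changed sign with limma-voom (0.22), the replicate block (0.053), plain totals (0.48) and the Y-linked term (0.31), and ranged from -0.31 to 0.68 with single libraries left out (0.11 without KT;Lkb1f/f replicate 1, 0.68 without sgSik1 replicate 1). Differences of sgSik1-3 from sgSik1 ranged from -1.81 to -0.42, -0.85 to -0.11 and -2.97 to -1.34 with single libraries left out. The Nr4a3 to Nr4a2 ratio in KT;Lkb1f/f ranged from -0.53 to 0.29 (0.033 without KT replicate 4), and the Nr4a3 to Nr4a1 ratio in Sik-targeted libraries from -0.47 to 0.044 (highest without sgSik1-3 replicate 1).

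Counts of all genes that rose moved more than the receptors. In KT;Lkb1f/f it was 83, but 7 to 145 with single libraries left out, 1 without KT replicates 2 and 3, 16 on plain totals, 21 with the block, 265 with DESeq2 and 442 without a filter. In Sik-targeted libraries it was 789, but 270 to 1109 with single libraries left out, 37, 216, 427, 1214 and 1235 in the same settings. In sgSik1 it was 415 (95 to 775, then 1, 70, 152, 788 and 963) and in sgSik1-3 it was 267 (49 to 593, then 8, 61, 78, 571 and 701). With DESeq2 the CREB list gave 12 and the immediate-early list 26 risers in KT;Lkb1f/f libraries. Receptors with few counts, Nr4a3 in KT and in sgSik1-3 replicate 1 above all, are limited by depth.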
